A study of Mus musculus with 6 samples.

Results

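The genes described here encode RNA polymerase II, the general transcription factors that place it at promoters, and the kinases and factors that release it into elongation. The list holds 48 genes, and 44 of them were read by at least 1 probe set that the platform annotation gives to that gene alone, out of 18193 genes measured in the same way. They were grouped by role: subunits of the polymerase, TFIIA, TFIIB, TFIIE and TFIIF, TFIID, TFIIH with its kinase, the elongation kinase P-TEFb with an inhibitor, and elongation factors. Polr2k, Polr2l, Taf9 and Gtf2h2 had no probe set of their own and are not analysed here. Taf4a is called Taf4 in RefSeq. Where a gene had several probe sets, the one with the highest mean over the 6 arrays stands for it.

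The arrays were made from total RNA of embryonic stem (ES) cells from 129SV mice, 3 from wild-type cells and 3 from cells in which Med23 had been knocked out. Both groups were harvested after 24 hours in fresh complete ES cell medium, with no other treatment. Neither the way the knockout was made nor the number of lines per group is stated in the labels, so the p values measure only the spread between these samples. Values are log2 expression values, differences are knockout minus wild type, and a gene is said to have risen or fallen only where its limma p, adjusted by Benjamini and Hochberg over 45037 probe sets, was under 0.05.

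RNA polymerase II transcribes the protein-coding genes of the nucleus. At a promoter TFIID, built from the TATA-binding protein and its associated factors (TAFs), is joined by TFIIA and TFIIB, then by the polymerase with TFIIF, and last by TFIIE and TFIIH, which opens the DNA and whose kinase phosphorylates the tail of the largest polymerase subunit. Mediator, of which MED23 is a tail subunit, connects bound activators with this assembly. Polymerase that has stalled shortly after the start is released by P-TEFb, a kinase of CDK9 and a T-type cyclin, and MED23 is known to associate with P-TEFb. TFIID is known to take part in holding ES cells undifferentiated.

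Med23 was lower in every knockout array, at 7.33 to 7.40 against 8.84 to 8.95 in the wild type, a difference of -1.52 (SE 0.06) with a limma adjusted p of 2.69e-05. Array medians lay between 4.61 and 4.64. Wild-type replicate 1 stood apart, where 752 probe sets were 2-fold or more under the average of the other wild-type arrays, so results that turn on it are given without it too. The Y-linked gene Eif2s3y had a mean of 3.04 in wild-type and 9.87 in knockout arrays, so the groups differ in more than Med23, and the effect of either cannot be told apart here. All 8 ES cell markers had means over 4.62, the median of the whole table, in either group, and 0 rose and 1 fell (Tdgf1, by 0.28). Of 11 endoderm markers 9 fell, with summed log2 levels of 73.4 to 78.2 in wild-type and 54.06 to 54.97 in knockout arrays. In the knockout 6 of them (Gata4, Sox17, Sox7, Foxa2, Afp and Ttr) had means below 4.62, as did Afp and Ttr in the wild type. Gata4, Sox7 and Col4a1 (-0.78, -2.70 and -3.41) lie in chromosome stretches that were lower too. The median log2 fold change of the 10 genes on either side (mean above 7) was -0.65, -0.61 and -0.53. It was above 0 around each other endoderm marker that fell, and the part of these stretches was not tested. Of 8 fibroblast markers, 7 had means below 4.62 in both groups, and 1 fell (Thy1, by 0.73). In bulk RNA, fewer cells of a type and less RNA per cell cannot be told apart, and the part of endoderm cells in the values below was not tested.

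The transcription machinery changed little. Of 44 genes, 3 rose and 0 fell, and all 3 encode TFIID subunits: Taf4a by 0.44, Taf6 by 0.34 and Taf10 by 0.24. Over all 18193 genes 8.53% rose and 10.4% fell, and over the 7626 genes with a mean above 7, a range that holds 43 of the 44, 13.5% rose and 13.5% fell (27.0% in either direction). The 6.82% of the list that rose thus lie near the share of all genes and below that of genes above 7. Its 0 falls lie below both shares. At an unadjusted limma p under 0.05, 12 were higher and 3 lower, where 16.7% of all genes (24.5% of those above 7) were higher and 16.3% (20.3%) lower. None differed by 2-fold, against 2.67% of all genes and 2.78% of those above 7.

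Most of the differences were uncalled, and their sizes were small. The median size of the log2 fold change was 0.10 in the list, 0.13 over all genes and 0.16 over genes above 7. The 95% interval of the difference lay within a 1.5-fold change either way for 41 of the 44 (93.2%), against 80.6% of all genes, and within 1.25-fold for 29 (65.9%, against 41.5%). The 3 genes whose interval reached beyond 1.5-fold were Taf1, Taf4a and Taf13. The median log2 fold change was 0.07, with all genes at 0.02.

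Many of the small differences still separated the arrays. In 20 of the 44 genes every knockout array lay above every wild-type array (45.5%, against 21.4% of all genes and 32.8% of genes above 7). In 4 genes, Polr2a, Polr2g, Gtf2h3 and Cdk9, every knockout array lay below (9.09%, against 19.5% and 26.3%). The count of calls differed between fits, in the list and over all genes. With the dimmer probe sets left out 9 rose and 2 fell, where 17.5% of all genes rose and 18.3% fell (19.7% and 17.5% of those above 7). With an intensity trend and robust settings in the variance prior 10 rose and 2 fell, where 12.1% of all genes rose and 12.8% fell (21.6% and 18.3% of those above 7). The 2 falls were Polr2a and Cdk9 both times, and the counts of rises lay near the shares of genes above 7.

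**Figure D1:**
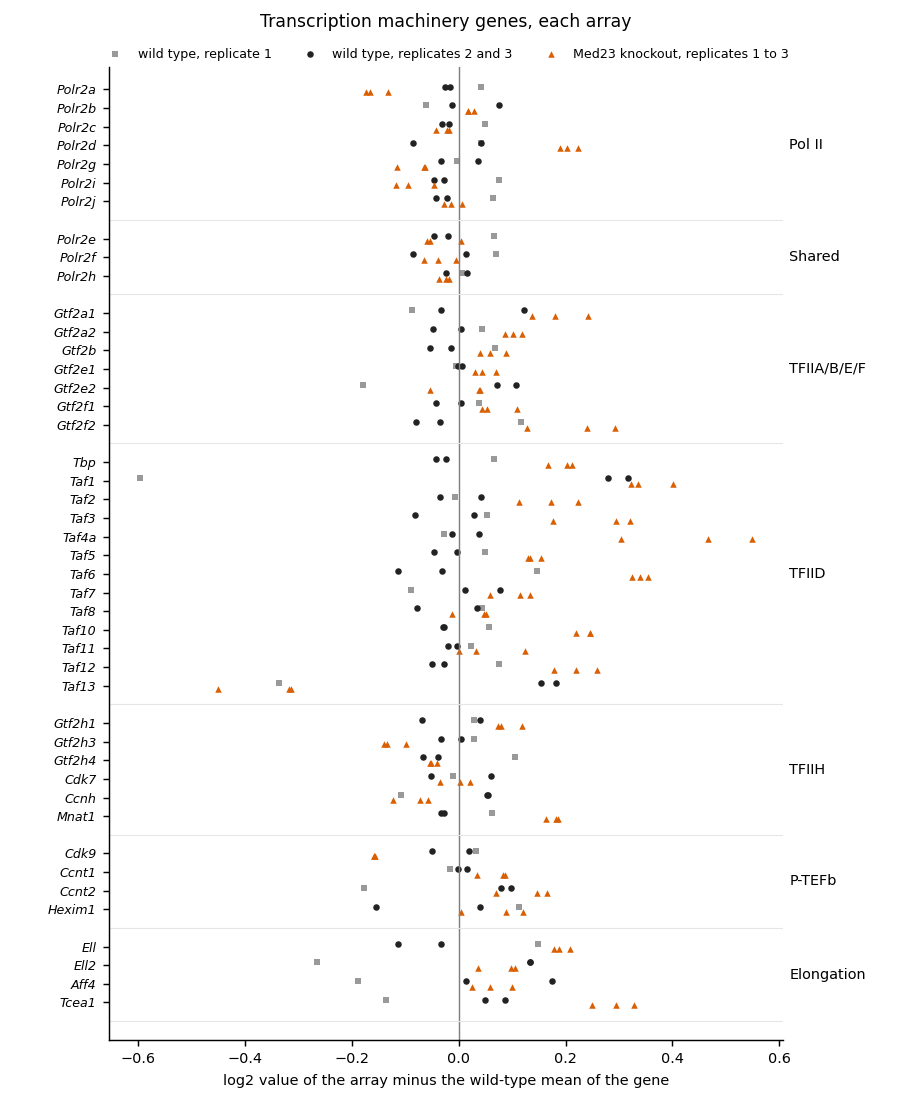
Each array's log2 value minus the wild-type mean of that gene (horizontal axis) for the 44 genes by role (rows). Most points lie within 0.3 of 0, the TFIID block leans to the right, and wild-type replicate 1 (grey squares) is far to the left for Taf1, Taf13 and Ell2.

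**Figure D2:**
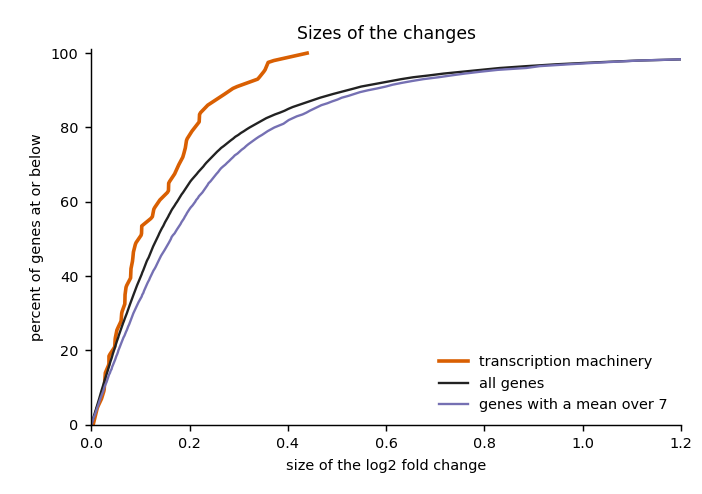
Percent of genes (vertical axis) whose log2 fold change is at or below a given size (horizontal axis) for the transcription machinery, all genes, and genes with a mean above 7. The machinery curve lies to the left of the others over most of its length and ends at 0.44, and its median is 0.10 against 0.13 and 0.16.

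Among polymerase subunits, none of 10 passed the test, and the median log2 fold change was -0.03. Polr2a, the largest subunit, carries the catalytic site and the repeated tail that TFIIH and P-TEFb phosphorylate. It was 10.04, 9.97 and 9.98 in wild-type replicates 1 to 3 and 9.83, 9.82 and 9.86 in knockout replicates 1 to 3. The ranges did not overlap, and the difference of -0.16 (95% interval -0.30 to -0.02, limma adjusted p = 0.140) did not pass. Its dimmer second probe set gave 0.0088 (limma adjusted p = 0.975).

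Polr2d, which with Polr2g forms the stalk that touches the emerging RNA, went the other way. It was 10.61, 10.61 and 10.48 in wild-type and 10.76, 10.77 and 10.79 in knockout arrays, a difference of 0.21 (limma adjusted p = 0.0861). Its stalk partner Polr2g differed by -0.08 (limma adjusted p = 0.461). The ranges of both genes were apart, in opposite directions, and neither passed.

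The other polymerase genes hardly differed. The second largest subunit gene Polr2b differed by 0.02, and Polr2c and Polr2j, which encode the pair that starts the assembly of the enzyme, by -0.03 and -0.01. Polr2i differed by -0.09. The subunits shared with polymerases I and III, Polr2e, Polr2f and Polr2h, differed by -0.04, -0.04 and -0.03, with every interval inside a 1.25-fold change. Knockout arrays of Polr2h ran from 11.40 to 11.42 and wild-type arrays from 11.41 to 11.45, so the ranges overlapped.

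None of the 7 genes of TFIIA, TFIIB, TFIIE and TFIIF passed, and all 7 differences were above 0, with a median of 0.07. The largest were Gtf2f2, the small TFIIF subunit that escorts the polymerase to the promoter, and Gtf2a1, which stabilises TFIID on DNA. Gtf2f2 was 9.62, 9.42 and 9.47 in wild-type and 9.74, 9.80 and 9.63 in knockout arrays (0.22, limma adjusted p = 0.130). Gtf2a1 differed by 0.19 (limma adjusted p = 0.174), and a dimmer probe set of it, with means of 4.89 and 5.31, passed (0.42, limma adjusted p = 0.0393). TFIIB, which bridges TFIID and the polymerase and is encoded by Gtf2b, differed by 0.06, and both TFIIE genes by less than that (Gtf2e1 0.05, Gtf2e2 0.0082).

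TFIID held the 3 genes that rose. Of 13 measured subunit genes 3 rose, 0 fell and 10 did not pass. The median log2 fold change was 0.19, 12 of the 13 differences were above 0, and in 9 every knockout array lay above every wild-type array. Of the genes above 7, 13.5% rose, 56.1% had a difference above 0 and 32.8% had knockout arrays all above; the excess in TFIID was not tested. Over the other 31 genes of the list 0 rose and the median was 0.05.

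Taf4a encodes a scaffold subunit of the TFIID core that pairs with TAF12 through a histone fold. It was 8.44, 8.46 and 8.51 in wild-type and 8.93, 9.02 and 8.77 in knockout arrays, with means of 8.47 ± 0.03 and 8.91 ± 0.13 (SD, n = 3 each). The lowest knockout array lay 0.26 above the highest wild-type array. This is a rise of 0.44 (SE 0.08) or 1.36-fold, with a limma adjusted p of 0.0112. A second probe set of Taf4a rose as well, from 7.81 to 8.13 (limma adjusted p = 0.0250). Leaving out any 1 array kept the call (limma adjusted p 0.0134 to 0.0492).

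Taf6, which pairs with TAF9, was 9.31, 9.14 and 9.05 in wild-type and 9.51, 9.49 and 9.52 in knockout arrays. The knockout arrays were nearly equal, and wild-type replicate 1 was the closest to them. The rise was 0.34 (SE 0.08) or 1.26-fold, with a limma adjusted p of 0.0332. Taf6 has no second probe set, and it overlaps the neighbouring gene Ap4m1 by 1813 bases in RefSeq. Ap4m1 rose by 0.35 (limma adjusted p = 0.0454), and the part of that overlap in the Taf6 value was not tested.

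Taf10, a histone-fold subunit that pairs with TAF3 or TAF8 and also belongs to the SAGA coactivator, was 11.96, 11.88 and 11.88 in wild-type and 12.15, 12.15 and 12.13 in knockout arrays. Arrays within each group differed by less than 0.1, and the groups did not overlap. The rise was 0.24 (SE 0.06) or 1.18-fold, with a limma adjusted p of 0.0422, and its other, dim probe set gave 0.35 (limma adjusted p = 0.0333). The neighbour Ilk, which overlaps Taf10 by 32 bases, differed by 0.03. The calls of Taf6 and Taf10 held without wild-type replicate 1 (limma adjusted p = 0.00933 and 0.0324) and ended without wild-type replicate 2 (0.101 and 0.111), wild-type replicate 3 (0.0787 and 0.0942), knockout replicate 1 (0.102 and 0.132), knockout replicate 2 (0.0998 and 0.138) or knockout replicate 3 (0.112 and 0.122).

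The promoters of the 3 genes that rose are shown as the DNA at which their own transcription starts, each from 250 bases before the RefSeq start to 30 bases after it, on the minus strand of GRCm38.p6. The windows are chr2:179976617-179976896 for Taf4a, chr5:138187197-138187476 for Taf6 (the more downstream of 2 starts in the table) and chr7:105744309-105744588 for Taf10. Capitals mark the letters TTTATA, which are TATAAA on the opposite strand.
Taf4a: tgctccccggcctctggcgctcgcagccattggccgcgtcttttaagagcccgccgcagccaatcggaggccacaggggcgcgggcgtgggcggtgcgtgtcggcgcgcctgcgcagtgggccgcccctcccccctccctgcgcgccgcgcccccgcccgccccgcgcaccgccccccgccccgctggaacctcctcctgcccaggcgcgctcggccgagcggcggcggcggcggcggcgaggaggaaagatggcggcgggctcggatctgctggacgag
Taf6: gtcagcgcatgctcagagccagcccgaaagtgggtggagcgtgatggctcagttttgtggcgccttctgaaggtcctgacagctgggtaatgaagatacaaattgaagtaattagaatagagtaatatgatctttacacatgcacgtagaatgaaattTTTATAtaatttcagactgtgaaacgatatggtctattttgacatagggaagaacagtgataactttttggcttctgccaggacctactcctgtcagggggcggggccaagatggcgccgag
Taf10: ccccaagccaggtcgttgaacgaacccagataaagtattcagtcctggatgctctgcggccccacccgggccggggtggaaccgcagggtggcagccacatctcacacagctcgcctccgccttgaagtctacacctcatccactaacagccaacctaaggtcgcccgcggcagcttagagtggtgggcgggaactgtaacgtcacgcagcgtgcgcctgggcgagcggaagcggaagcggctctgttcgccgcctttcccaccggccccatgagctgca
The windows differ in composition: G and C make up 79.3% of the Taf4a window, 63.9% of the Taf10 window and 45.7% of the Taf6 window. The match in Taf6 begins at base -92.

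**Figure D3:**
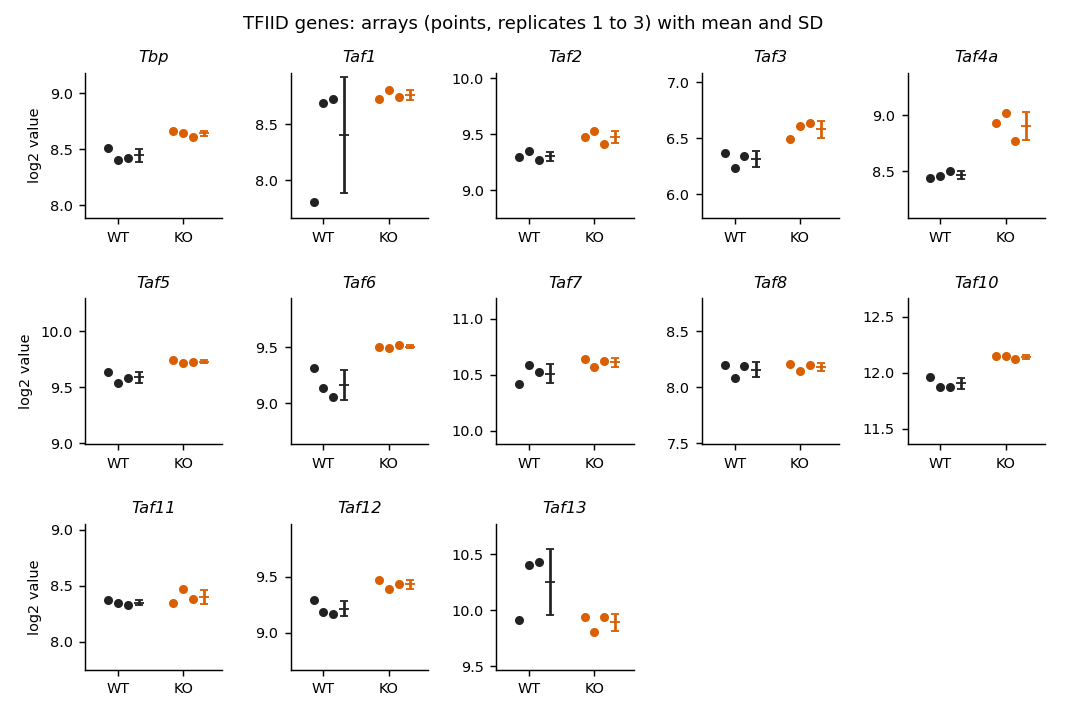
Log2 values (vertical axis, each panel spanning the same range of 1.3) of 13 TFIID genes in wild-type (WT) and Med23 knockout (KO) arrays, with the mean and SD beside the points. Knockout points lie above all wild-type points in 9 panels, among them Taf4a, Taf6 and Taf10, and wild-type replicate 1, the leftmost point, is low for Taf1 and Taf13.

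Tbp, the DNA-binding subunit, and the other TFIID genes did not pass. Tbp was 8.51, 8.40 and 8.42 in wild-type and 8.66, 8.65 and 8.61 in knockout arrays (0.19, limma adjusted p = 0.0897). Taf12, the partner of TAF4, differed by 0.22 (limma adjusted p = 0.0718) and passed without wild-type replicate 1 (0.26, limma adjusted p = 0.0424). Taf3, which reads a methyl mark of active promoters and pairs with TAF10, was 6.37, 6.23 and 6.35 in wild-type and 6.49, 6.61 and 6.64 in knockout arrays (0.26, limma adjusted p = 0.0539). In all 3 genes the array ranges were apart. Taf2 and Taf5 differed by 0.17 and 0.14, also with separate ranges. Taf7, Taf8 and Taf11 differed by 0.10, 0.03 and 0.05, with overlapping ranges.

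Taf1 and Taf13 turned on wild-type replicate 1. Taf1, the largest TFIID subunit, was 7.81 in that array against 8.69 and 8.73 in its fellows and 8.73, 8.81 and 8.74 in knockout arrays. Its difference of 0.35 (95% interval -0.19 to 0.90, limma adjusted p = 0.403) became 0.05 (limma adjusted p = 0.630) without that array. Taf13, the histone-fold partner of TAF11, was 9.92, 10.41 and 10.44 in wild-type and 9.94, 9.80 and 9.94 in knockout arrays. It was the only TFIID gene with a difference below 0, at -0.36 (limma adjusted p = 0.158). Without wild-type replicate 1, Taf13 was lower past the test (-0.53, SE 0.07, limma adjusted p = 0.00630), whereas TAF11's gene differed by 0.06. Ell2 was the third gene whose value in that array lay over 0.3 below the mean of its fellows. Over the whole list, replicate 1 was the lowest wild-type array in 14 genes and the highest in 24. Without it 5 of the 44 rose (Taf4a, Taf6, Taf10, Taf12 and Ell) and 1 fell (Taf13), against 10.1% and 10.4% of all genes in that fit.

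None of the 6 TFIIH genes passed. Mnat1, the assembly factor of the kinase module, was 10.06, 9.98 and 9.97 in wild-type and 10.17, 10.19 and 10.19 in knockout arrays (0.18, limma adjusted p = 0.110), with separate ranges. The kinase gene Cdk7 itself differed by -0.0038 (95% interval -0.15 to 0.14), and 5 probe sets of it were measured, none past the test. Its cyclin partner Ccnh differed by -0.08 (limma adjusted p = 0.522). A dimmer Ccnh probe set passed in the opposite direction, from 7.07 to 7.58 (0.51, limma adjusted p = 0.0428), so the direction for Ccnh depends on the probe set. Among the core subunits, Gtf2h3 differed by -0.12 with separate ranges, Gtf2h4 by -0.05 and Gtf2h1 by 0.09.

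P-TEFb is the part of the list that MED23 is known to contact. None of the 4 genes in its group, which includes the inhibitor gene Hexim1, passed. Cdk9, its kinase, was 11.19, 11.11 and 11.18 in wild-type arrays and 11.00 in each of the 3 knockout arrays. The ranges were apart and the difference small, at -0.16 (95% interval -0.30 to -0.02, limma adjusted p = 0.140), or 1.12-fold. A dim second probe set of Cdk9 gave -0.24 (limma adjusted p = 0.113). The cyclin genes Ccnt1 and Ccnt2 differed by 0.07 and 0.13 and Hexim1, which holds P-TEFb inactive on an RNA scaffold, by 0.07. For these 3 the 95% intervals were -0.07 to 0.20, -0.08 to 0.34 and -0.13 to 0.27. Ccnt2 has 5 probe sets, and its dimmer ones differed by -0.11 to 0.46, none past the test. The array ranges were apart at both ends, for -0.11 (limma adjusted p = 0.373) and for 0.46 (limma adjusted p = 0.172). The direction for Ccnt2 thus depends on the probe set.

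The elongation factor genes all had differences above 0, and none of 4 passed. Tcea1 encodes TFIIS, which rescues backtracked polymerase by stimulating cleavage of the transcript. It was 10.26, 10.49 and 10.45 in wild-type and 10.69, 10.73 and 10.65 in knockout arrays, and the ranges did not overlap. Its difference of 0.29 (SE 0.08, limma adjusted p = 0.0514) was next to the threshold, while its second probe set gave -0.19 (limma adjusted p = 0.527). Without wild-type replicate 1 the second probe set was lower past the test (limma adjusted p = 0.0387). The chosen one still did not pass (limma adjusted p = 0.0657), so the direction for Tcea1 depends on the probe set. Ell, an elongation factor of the super elongation complex, differed by 0.19 (limma adjusted p = 0.187), and by 0.27 without wild-type replicate 1 (limma adjusted p = 0.0392). Its relative Ell2 and the scaffold gene Aff4 differed by 0.08 and 0.06, and both became -0.05 and -0.03 without that array.

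**Figure D4:**
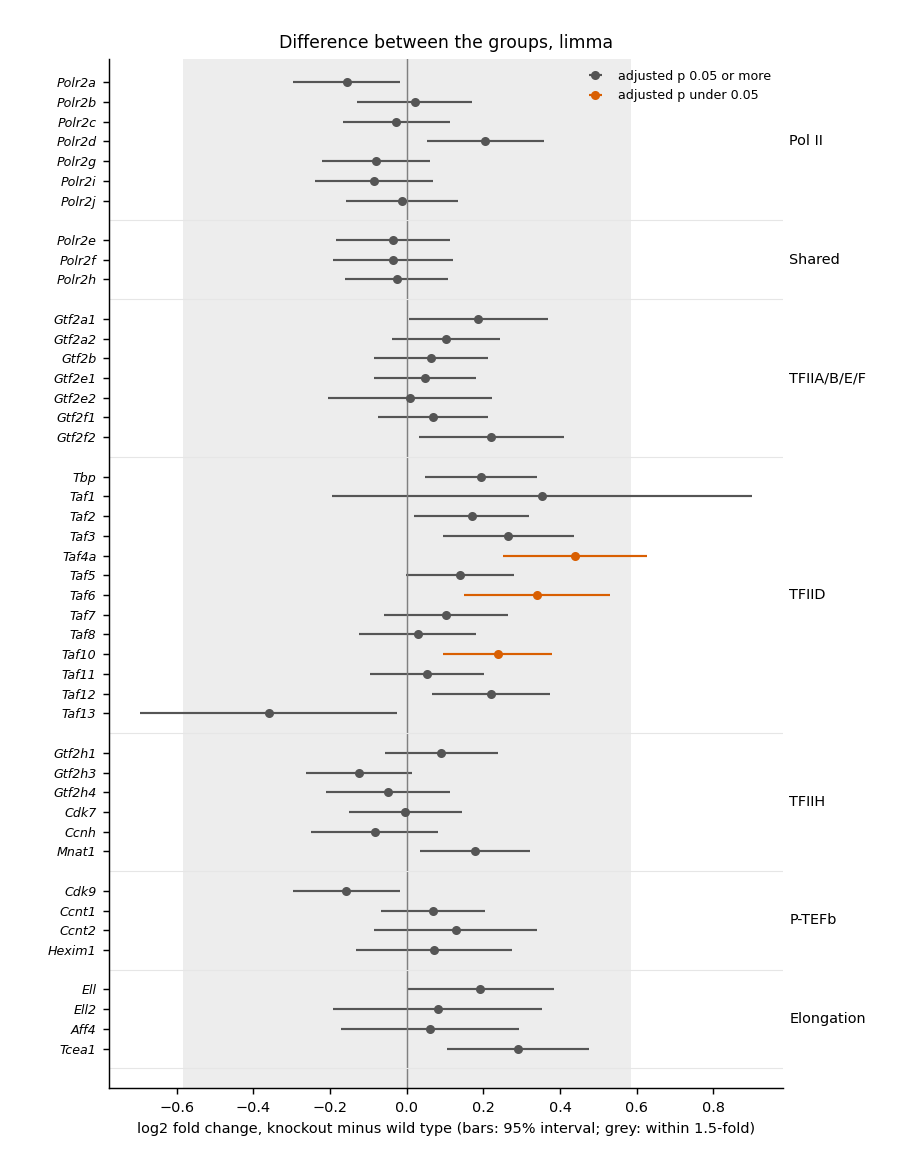
Log2 fold change of each of the 44 genes (points) with its 95% interval (bars) from limma, knockout minus wild type. The 3 genes that passed the test are in orange, and the grey band marks a 1.5-fold change either way, which 41 intervals do not leave.

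Of all 81 probe sets of the 44 genes, 7 were higher past the test and 0 lower, where 6.69% of all 45037 probe sets were higher and 7.43% lower. The 4 that were not the chosen ones belong to Taf4a, Taf10, Gtf2a1 and Ccnh.

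ETS-family factors such as ELK1, through which MED23 is known to be recruited, bind sites with a GGAA core, so promoter windows were searched for the letters CCGGAAG on both strands. RefSeq windows of 300 bases, from 250 before to 50 after the start, were found for 40 of the 48 genes. The letters occurred in 15 of the 40 (37.5%), against 2683 of 27025 genes in the table (9.93%), which also holds predicted genes and genes with no probe set. Among measured genes with a window, 14 of the list had the letters and 23 did not, against 2165 and 12287 over all genes. The share over genes with a mean above 7 was not taken, and the excess in the list was not tested. TATAAA on either strand occurred in 8 of the 40 (20.0%, against 15.7%). The matches are shown for Cdk9, Polr2c, Taf12 and Taf13, which did not pass the test in the fit of all arrays, with 10 bases on each side in the direction of the gene and the searched letters in capitals (GRCm38.p6, minus strand for Cdk9 and plus strand for the others). They lie at chr2:32712799-32712825 and chr2:32712770-32712796, chr8:94857457-94857483, chr4:132274333-132274359 and chr4:132274376-132274402, and chr3:108571636-108571662.
Cdk9, from base -31: cgggcggagaCCGGAAGaggcgggctc
Cdk9, from base -2: cacctcgaggCCGGAAGtggccgtgga
Polr2c, from base 18: ccgcgactagCCGGAAGcgccgattgc
Taf12, from base -32: cgcccggcggCCGGAAGagccgcgcgt
Taf12, from base 12: gggagcggtgCCGGAAGtgcttgggga
Taf13, from base -53: gctggccaggCCGGAAGtgacgtacgt
None of the 3 genes that rose had these letters in its windows. The 14 measured genes with them had a median log2 fold change of 0.06 and 0 calls, and the 23 without had 0.07 and 3 calls. Over all genes both medians were 0.02, and 20.0% of 2165 genes with the letters and 18.6% of 12287 without passed in either direction. A match describes the letters only, and no binding was measured. Stretches with the GGAA core and other letters beside it, such as GCGGAAG in the Taf10 window, were not counted.

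No gene of the list lay in a chromosome stretch with a neighbour median of -0.4 or lower. For each, the median log2 fold change of the 10 measured genes on either side, counting genes with a mean above 7, ran from -0.17 for Polr2a to 0.18 for Taf6. Taf4a had a neighbour median of 0.12 and Taf10 of 0.0050. The value of Polr2a, -0.16, was thus close to that of its neighbours.

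Other genes of the same processes were examined for comparison. Of 58 measured, 5 rose (8.62%), 4 fell (6.90%) and 49 did not pass, with a median of 0.03. Over all genes 8.53% rose and 10.4% fell. These counts rest on 1 probe set per gene, and other probe sets of some genes that did not pass were past the test. Eloa differed by -0.05, but its other 2 probe sets rose (0.43 and 0.49, limma adjusted p = 0.00312 and 0.0265). Iws1 differed by -0.12, and its second probe set fell (-0.47, limma adjusted p = 0.00786). Dimmer probe sets of Cdk12 (in both directions), Cdk13 and Polr3e (higher) passed too. These genes were named after their values were seen. None of 14 related general factors passed; the lowest p values belonged to Ercc2, a helicase of TFIIH (-0.33, limma adjusted p = 0.0698), and Taf15, an RNA-binding protein found with TFIID (0.34, limma adjusted p = 0.0872). The other probe set of Taf15 passed in the opposite direction (-2.56, limma adjusted p = 0.00756), so the direction for Taf15 depends on the probe set. Its mean over the 6 arrays, which includes that fall, was 5.51, against 6.11 for the chosen probe set. Of 29 pausing and elongation genes 4 rose and 2 fell.

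Both falls lay on chromosome 14. Eaf1, whose product binds ELL, was 8.97, 8.92 and 8.83 in wild-type and 7.75, 7.79 and 7.80 in knockout arrays (-1.12, SE 0.06, limma adjusted p = 8.95e-05). Supt16, a subunit of the histone chaperone FACT, fell from 12.21 ± 0.09 to 11.49 ± 0.01 (SD, n = 3 each), by 0.72 on the log2 scale (limma adjusted p = 0.000709). Their neighbour medians were -0.72 and -0.77, with 19 of 20 neighbours lower past the test for each, so Supt16 moved as its neighbours did and Eaf1 by 0.40 more.

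Among the rises, Aff1, a paralogue of Aff4 in the super elongation complex, went from 8.08 to 8.76 (0.67, SE 0.10, limma adjusted p = 0.00438), while Aff4 differed by 0.06. Mllt3, another partner of that complex, rose by 0.54 (limma adjusted p = 0.00134), though its other 2 probe sets differed by -0.11 and -0.0016. The other rises, named after their values were seen, were Tcea3, a tissue-restricted relative of Tcea1 (0.41), and Larp7, which stabilises the RNA that holds P-TEFb inactive (0.34). Of 15 subunits of polymerases I and III, Polr3f rose by 1.09 (limma adjusted p = 0.000424), and Polr1b and Polr1d fell (-0.32 and -0.28, limma adjusted p = 0.0235 and 0.0210). Polr3f had 5 probe sets, of which 2 rose and 3 had differences from -0.26 to -0.20, so its direction depends on the probe set. The calls of Polr1b and Polr1d held without any single wild-type array and ended without knockout replicate 1, 2 or 3 (limma adjusted p up to 0.0876 and 0.0896).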

How the data were processed

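Total RNA of 3 wild-type and 3 Med23 knockout ES cell samples was labelled with biotin and hybridised to Affymetrix arrays, 1 per sample. The deposited log2 values were used as given by the authors; RMA and MAS5 are named in the submitters' processing notes, with no role or version. The scale reads as log2 from its range, and the titles call the samples biological replicates.

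The 64 array controls among 45101 probe sets were dropped. Gene names came from the platform annotation (34945 probe sets with 1 symbol, 932 with several, 9160 with none) and were updated through RefSeq (34741 matched). Knockout was compared with wild type by limma's moderated linear model (version 3.58.1, under R 4.3.3; two-sided, without covariates), tested on simulated data first. The fit had 4 residual and 3.08 prior degrees of freedom, and the number of arrays limits its precision. Named genes were those past the test, or the 2 with the lowest p in a role group with none (in the comparison lists, the 4 with the largest change past the test or the 2 with the lowest p); others complete their groups. The members and lists were chosen with earlier results of these data known, so no list was tested as a set. Promoters are from RefSeq, GRCm38.p6. Alternatives covered normalization, dim probe sets, the variance prior, array weights, a replicate block, each array left out, and the choice of probe set.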

Additional observations from a re-analysis of the deposited data

How the results depend on the processing

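Taf4a was among the genes that rose under every alternative run, and the median log2 fold change of the 44 genes stayed between 0.06 and 0.10. Against 3 rises in the fit as reported, 9 were found with dim probe sets left out, 10 with an intensity trend and robust prior, 7 with array weights, 5 with the probe set of largest spread and 7 with the mean of all probe sets. Against 0 falls, these gave 2, 2, 1, 0 and 1. Of the genes with a mean above 7, the same fits called 15.9% to 21.6% higher and 14.5% to 18.3% lower, against 13.5% each in the fit as reported, so calls were more numerous outside the list too. Leaving out 1 array gave 1 to 5 rises and 0 to 1 falls, the upper counts without wild-type replicate 1, with 6.61% to 16.2% of genes above 7 higher and 9.22% to 13.7% lower. With the replicate block 1 gene rose (8.13% of genes above 7), Taf4a, and Taf6 and Taf10 did not pass (limma adjusted p = 0.0723 and 0.114). Same-numbered samples did not deviate together (correlations -0.25, -0.16 and 0.02), so the numbers give no pairing. With its probe set of largest spread Ccnh reversed and passed the test, at 0.51 (limma adjusted p = 0.0428). Other genes changed sign with that choice without passing, among them Tcea1 (0.29 to -0.19), Tbp (0.19 to -0.04) and Polr2a (-0.16 to 0.0088). The direction of small differences thus depends on the choice of probe set.

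Among the 58 comparison genes, against 5 rises, 9 were found with the probe set of largest spread. Against 4 falls, 10 were found with dim probe sets left out, 10 with the intensity trend and robust prior and 2 with the replicate block, and leaving out 1 array gave 2 to 5. Quantile normalization and centring kept all counts within 1.5 times. The cause of these shifts was not tested. With 3 arrays a group, leaving out any 1 array other than wild-type replicate 1 ended the Taf6 and Taf10 calls.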
